A study of Mus musculus with 12 samples.

Results

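Padi2 and Ddah1 encode enzymes that act on arginine side chains and free methylated arginines. Their probes were found on the array by reading the number inside each probe name as a mouse gene ID, which gave 3 of 46628 probes: 2 for Padi2 (scl0018600.1_295-S and scl018600.16_271-S) and 1 for Ddah1 (scl0069219.2_49-S). Of these, 2 were among the 14906 probes above background on at least 1 array, 1 for each gene. The second Padi2 probe was above background on 0 of 12 arrays, with intensities of 25.9 to 42.9, so that every Padi2 value below comes from the other probe. The pair of genes was chosen on intensities of these same arrays, in comparisons that are not stated, so their levels and differences are given as a description with no p-value.

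Peptidylarginine deiminases such as PADI2 convert arginine residues within proteins to citrulline, a reaction that needs calcium and removes a positive charge from the substrate. Dimethylarginine dimethylaminohydrolase 1, the product of Ddah1, breaks down asymmetric dimethylarginine, a free amino acid released when methylated proteins are degraded, and also yields citrulline. Asymmetric dimethylarginine inhibits nitric oxide synthases, so DDAH1 is known as a regulator of nitric oxide production, while PADI2 is best known in brain, muscle and immune cells.

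RNA of primary mouse melanocytes from newborn skin was hybridised to 12 Illumina bead arrays, 2 for each of 6 culture groups. The groups were ATF2-/- cultures given 4-hydroxytamoxifen (4-OHT) and doxycycline, ATF2-/- cultures given doxycycline only, and ATF2+/+ (WT) cultures given doxycycline only, each held in 1% O2 for 12 h (hypoxia) or in normoxia. All cultures carried an oncogenic Nras transgene switched on by doxycycline and lacked Ink4a, and all came from mice of the mixed strain labelled FVB/129/OlaHsd/C57Bl/6. The Atf2 exons that encode the DNA-binding region and a stretch of the leucine zipper were flanked by loxP sites, for a Cre that is driven by the tyrosinase promoter and made active by 4-OHT. No WT culture received 4-OHT, so the difference of 4-OHT-treated mutant from WT cultures holds the drug as well as the genotype, and the labels call the mutant cultures ATF2-/- also where no 4-OHT was given. The labels put same-numbered arrays on 1 slide but give no animal for any array, so the spread between them may be technical.

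Several facts of the arrays bear on every value below. The Atf2 probe was not above background on any array, with intensities of 27.9 to 49.6, so that deletion could not be checked. Xist was above background on 8 of 8 mutant and 0 of 4 WT arrays, and Eif2s3y on 0 of 8 mutant and 4 of 4 WT arrays, so genotype and the sex of the cultures cannot be told apart. All 6 named melanocyte markers were above background on every array and 0 of 5 myeloid markers on any, while 2 to 4 of 8 fibroblast markers were above background in every group (summed intensity 735.8 to 1697), among them Col5a1 and not Col1a1, Col1a2, Col3a1 or Postn. The mutant cultures without 4-OHT stood apart under hypoxia. The acetylcholine receptor subunit gene Chrna1, a skeletal muscle marker, had intensities of 26.3 and 29.4 there, against 2305 and 3560 in their normoxic partners and 1875 to 4868 in mutant cultures with 4-OHT, while WT arrays lay at 22.5 to 31.1. Egln3, a target of hypoxia-inducible factor, was lower by 1.90 (adjusted p = 3.82e-05, limma) in these hypoxic cultures than in their normoxic partners. The hypoxia targets Ldha and Pgk1 were higher there, by 0.56 (adjusted p = 0.0459, limma) and 0.80 (adjusted p = 0.0454, limma). Whether these 2 arrays hold the cultures that their labels name was not tested, and every value of hypoxic mutant cultures without 4-OHT below is that of the arrays so labelled. In WT cultures, Egln3, Ldha and Pgk1 were higher under hypoxia by 1.93, 1.66 and 0.89 (adjusted p = 0.000748, 0.00083 and 0.0362, limma). Egln3 was not above background on either normoxic WT array, so the size of its difference is not established. In mutant cultures with 4-OHT, Egln3, Ldha and Pgk1 were higher under hypoxia by 0.80, 0.86 and 0.38. None of these differences with 4-OHT passed (adjusted p = 0.252, 0.201 and 0.654, limma). Comparisons that include the hypoxic mutant cultures without 4-OHT, and those of other mutant with WT cultures, thus set groups with unlike muscle marker levels against each other. In RNA from whole cultures, fewer cells of a type and less RNA per cell cannot be told apart.

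The promoters are shown because the cultures differ in ATF2, which binds the cyclic AMP response element, and in oxygen, to which hypoxia-inducible factor responds at ACGTG. Each run holds 250 bases before and 50 after a RefSeq transcript start on the plus strand of GRCm38.p6, chr4:140906110-140906409 for Padi2 and chr3:145758442-145758741 for Ddah1. Capitals mark a match, on either strand, to the whole response element TGACGTCA, to its first part TGACG alone, to the hypoxia core ACGTG, to the E-box CACGTG that contains this core, or to the E-box written CATGTG.
Padi2: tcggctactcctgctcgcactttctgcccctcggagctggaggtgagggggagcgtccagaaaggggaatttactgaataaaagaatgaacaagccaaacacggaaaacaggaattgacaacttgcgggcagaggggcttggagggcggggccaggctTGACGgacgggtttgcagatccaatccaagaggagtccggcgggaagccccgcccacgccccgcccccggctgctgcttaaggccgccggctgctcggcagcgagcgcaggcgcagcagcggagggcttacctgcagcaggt
Ddah1: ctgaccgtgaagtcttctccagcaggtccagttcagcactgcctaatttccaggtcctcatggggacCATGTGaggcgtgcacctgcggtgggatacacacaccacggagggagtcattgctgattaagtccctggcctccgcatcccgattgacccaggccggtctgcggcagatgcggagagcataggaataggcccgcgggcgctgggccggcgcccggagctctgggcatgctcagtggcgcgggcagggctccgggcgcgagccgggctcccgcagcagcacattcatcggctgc

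The Padi2 window held TGACG at position 159 of the run, and the Ddah1 window held CATGTG at position 68, both on the plus strand. TGACG occurs in 20.8% of 32851 promoter windows of this length and CATGTG, an E-box of the kind that the melanocyte factor MITF binds, in 14.2%. Neither window held the whole response element, the hypoxia core or the other E-box, which occur in 1.79%, 19.6% and 7.15% of the windows. The windows were 63.3% G and C for Padi2 and 65.7% for Ddah1. A match or its absence says only which letters stand in these windows.

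Padi2 RNA was lowest in hypoxic WT cultures and highest in normoxic mutant cultures with 4-OHT, with the other 4 groups close together between them. On slides 1 and 2 the probe had background-corrected, normalized log2 intensities of 9.69 and 10.07 in mutant cultures with 4-OHT under hypoxia, and 10.73 and 10.53 in normoxia. Mutant cultures without 4-OHT had 9.76 and 9.61 under hypoxia, and 9.52 and 9.78 in normoxia. WT cultures had 7.84 and 7.92 under hypoxia, and 9.94 and 9.95 in normoxia. The 2 hypoxic WT arrays were thus below every other array by more than any pair of partner arrays differed, and the 2 normoxic arrays of mutant cultures with 4-OHT were above every other. The scanner intensities behind these values were 223 and 301 in hypoxic WT cultures and between 616 and 1552 on the other 10 arrays, all with a detection p of 0.

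Ordered by mean, Padi2 stood at 7.88 ± 0.06 in hypoxic WT cultures, then at 9.65 ± 0.18 and 9.69 ± 0.11 in normoxic and hypoxic mutant cultures without 4-OHT, at 9.88 ± 0.27 in hypoxic mutant cultures with 4-OHT, at 9.94 ± 0.01 in normoxic WT cultures and at 10.63 ± 0.14 in normoxic mutant cultures with 4-OHT (log2, SD, n = 2 each). Neighbours among the 4 middle groups overlapped in their arrays. The lowest and the highest group stood clear of their neighbours.

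**Figure D1:**
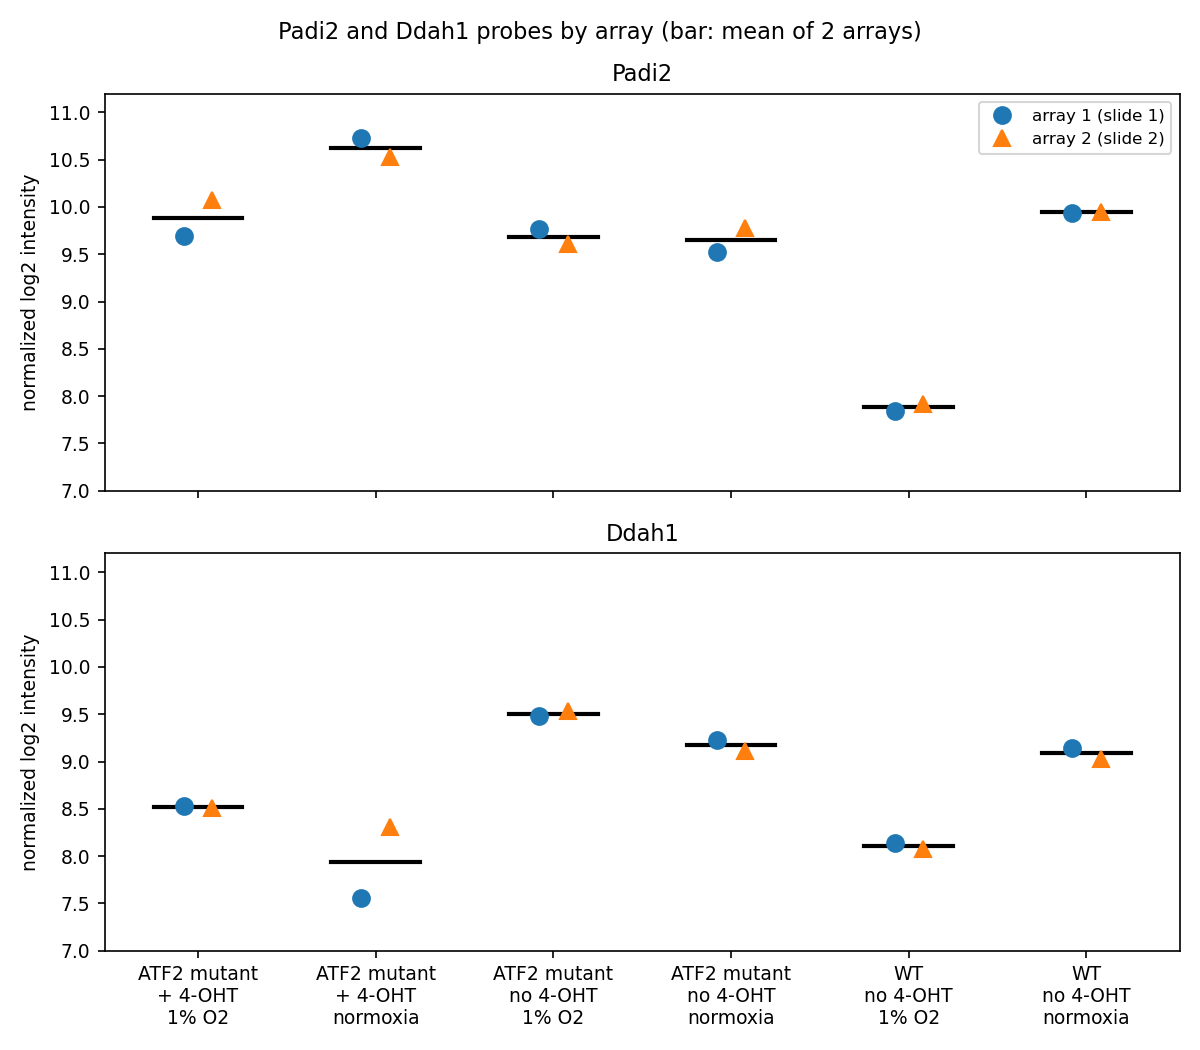
Normalized log2 intensity (y axis) of the Padi2 probe (top) and the Ddah1 probe (bottom) on each array, by culture group (x axis); circles and triangles are the arrays of slides 1 and 2 and bars are means of 2 arrays. Hypoxic WT cultures lie lowest for Padi2 at 7.84 and 7.92, and the 2 arrays of normoxic mutant cultures with 4-OHT lie far apart for Ddah1 at 7.56 and 8.30.

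Under hypoxia, Padi2 was higher in both kinds of mutant culture than in WT cultures. With 4-OHT the level was 4.00-fold that of WT cultures, and the log2 difference was 1.85 and 2.15 within slides 1 and 2 (SE of the log2 difference 0.18). Without 4-OHT the log2 difference was 1.81 (SE 0.18) or 3.50-fold, with 1.93 and 1.69 within the slides. In both comparisons the mutant arrays lay above the WT arrays without overlap, as did those of 21.4% of kept probes with 4-OHT and 35.1% without, and 1.63% and 1.58% of kept probes were higher by at least as much. These comparisons share the 2 hypoxic WT arrays, which are also the low arrays of the oxygen comparison in WT cultures.

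In normoxia the genotypes lay closer. Padi2 was higher by 0.68 (SE 0.18) in mutant cultures with 4-OHT than in WT cultures, with 0.79 and 0.58 within the slides and no overlap of arrays, a pattern of 29.2% of kept probes. In mutant cultures without 4-OHT the difference from WT was -0.29 (SE 0.18), with -0.42 and -0.17 within the slides; the arrays did not overlap, as for 35% of kept probes, and 28.7% of them were lower by at least as much. The sign of the Padi2 difference between mutant cultures without 4-OHT and WT cultures thus was not the same in normoxia and hypoxia.

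4-OHT went with a higher Padi2 level in normoxic mutant cultures. The difference from mutant cultures without 4-OHT was 0.98 (SE 0.18), or 1.97-fold, and was 1.20 and 0.75 within slides 1 and 2, without overlap. Arrays stood apart in this direction for 22.1% of kept probes, and 1.69% were higher by at least as much. Under hypoxia the same difference was 0.19 (SE 0.18), with -0.08 on slide 1 and 0.47 on slide 2, and the arrays overlapped.

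Oxygen went with unlike Padi2 differences in the 3 kinds of culture. In WT cultures Padi2 differed by -2.06 (SE 0.18) under hypoxia, a 4.18-fold lower level, with -2.10 and -2.03 within the slides; 34.3% of kept probes had hypoxic arrays below the normoxic ones without overlap, and 0.168% were lower by at least as much. In mutant cultures with 4-OHT the hypoxic level was lower by 0.75 (SE 0.18), with -1.04 and -0.46 within the slides, without overlap as for 12.6% of kept probes. In mutant cultures without 4-OHT it differed by 0.04 (SE 0.18), with 0.24 and -0.17 within the slides, and the arrays overlapped. The oxygen difference was 2.10 (SE 0.26) greater in mutant cultures without 4-OHT than in WT cultures and 1.32 greater in those with 4-OHT; these values were not tested.

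**Figure D2:**
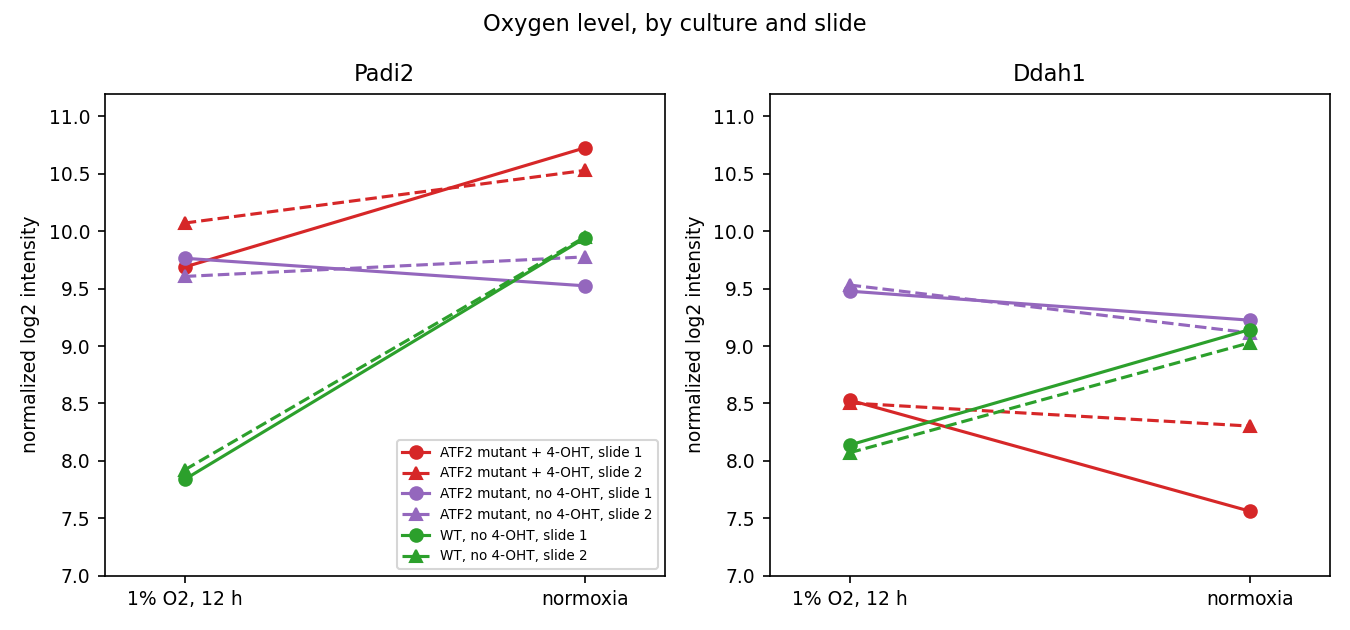
Normalized log2 intensity (y axis) of Padi2 (left) and Ddah1 (right) under 1% O2 and in normoxia (x axis), 1 line for each kind of culture and slide. The 2 WT lines lie lower under 1% O2 for both genes, with differences of -2.10 and -2.03 for Padi2 and -1.01 and -0.96 for Ddah1, whereas both Ddah1 lines of each kind of mutant culture lie higher under 1% O2.

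Skeletal muscle markers also differed between the groups, with 6 of 7 named ones above background in 3 of the mutant groups, 2 in hypoxic mutant cultures without 4-OHT and 1 to 2 in WT cultures. Their summed intensity was 8482 to 11130 in hypoxic and 6877 to 8140 in normoxic mutant cultures with 4-OHT, 925.4 to 1244 in hypoxic and 7828 to 11280 in normoxic mutant cultures without 4-OHT, and 351.1 to 466.7 in hypoxic and 290.5 to 402.7 in normoxic WT cultures, with Ttn not above background on any array. Beside these sums, Padi2 intensity was 787 and 1282 in hypoxic and 1422 and 1552 in normoxic mutant cultures with 4-OHT, 751 and 924 in hypoxic and 616 and 1119 in normoxic mutant cultures without 4-OHT, and 223 and 301 in hypoxic and 768 and 1029.7 in normoxic WT cultures. The part of muscle RNA in the Padi2 differences was not tested. The summed intensity of the 3 named keratinocyte markers was 555.9 to 633.3 in hypoxic WT cultures and 136.1 to 382.4 in the other groups. Of these, Krt15 was not above background on any array. Krt10 had 91 and 103.9 in hypoxic WT cultures against 84.3 and 113.5 in normoxic WT cultures. The higher sum in hypoxic WT cultures than in normoxic ones thus came from the remaining marker alone. The part of keratinocyte RNA in the low Padi2 of hypoxic WT cultures was not tested.

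Ddah1 RNA was lower with 4-OHT in mutant cultures and lower under hypoxia in WT cultures. The probe had normalized log2 intensities of 8.53 and 8.50 on slides 1 and 2 in mutant cultures with 4-OHT under hypoxia, and 7.56 and 8.30 in normoxia. Mutant cultures without 4-OHT had 9.48 and 9.53 under hypoxia, and 9.23 and 9.11 in normoxia. WT cultures had 8.14 and 8.07 under hypoxia, and 9.14 and 9.03 in normoxia. The highest values were the 2 hypoxic arrays of mutant cultures without 4-OHT. The 6 arrays of mutant cultures with 4-OHT and of hypoxic WT cultures all lay below the other 6. Scanner intensities ran between 186 and 877, with a detection p of 0 on all 12 arrays.

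By mean, Ddah1 stood at 7.93 ± 0.52 in normoxic mutant cultures with 4-OHT, at 8.10 ± 0.05 in hypoxic WT cultures, at 8.52 ± 0.02 in hypoxic mutant cultures with 4-OHT, at 9.09 ± 0.08 in normoxic WT cultures, and at 9.17 ± 0.08 and 9.51 ± 0.04 in normoxic and hypoxic mutant cultures without 4-OHT (log2, SD, n = 2 each). The 2 lowest groups overlapped, and so did normoxic WT cultures and normoxic mutant cultures without 4-OHT. The large SD of the lowest group comes from its 2 arrays, which also had the weakest correlation between partner arrays over all kept probes, 0.951 where the other pairs reached up to 0.995. Ddah1 was highest in hypoxic mutant cultures without 4-OHT, the mutant group with the lowest summed muscle markers (925.4 to 1244), and with summed Schwann cell and glia markers of 909.1 to 1545. Those glial sums were 2731 to 4460 in hypoxic and 1175 to 4988 in normoxic mutant cultures with 4-OHT, 2174 to 4383 in normoxic mutant cultures without 4-OHT, and 2762 to 4208 in hypoxic and 1599 to 2807 in normoxic WT cultures, with 2 to 3 of 7 markers above background, and Gfap, Sox2 and Ngfr among those on no array. The 4 named endothelial markers summed to 459.7 to 559.9 in hypoxic and 345 to 459.8 in normoxic mutant cultures without 4-OHT. Their sums were 345.2 to 410.4 in hypoxic and 286.5 to 351.7 in normoxic mutant cultures with 4-OHT. WT cultures had 283.2 to 403.9 under hypoxia and 333.1 to 438.8 in normoxia. Of these markers 1 to 2 were above background, with Pecam1 and Vwf on no array. The part of any of these marker lists in the Ddah1 level was not tested.

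Ddah1 was lower with than without 4-OHT in mutant cultures at both oxygen levels. In normoxia the difference was -1.24 (SE 0.22), a 2.36-fold lower level, with -1.66 and -0.81 within slides 1 and 2. Under hypoxia it was -0.99 (SE 0.22), or 1.98-fold lower, with -0.95 and -1.03. The arrays did not overlap, as for 21.1% of kept probes in normoxia and 34.3% under hypoxia, and 1.01% and 7.01% of kept probes were lower by at least as much. Without the slide 1 array of the treated normoxic cultures the normoxic difference was -0.87, and without their slide 2 array it was -1.61.

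Against WT cultures, the sign of the Ddah1 difference varied with oxygen in mutant cultures with 4-OHT. In normoxia Ddah1 was lower by 1.15 (SE 0.22), or 2.22-fold, in mutant cultures with 4-OHT than in WT cultures, with -1.58 and -0.73 within the slides and no overlap, as for 30.7% of kept probes. Under hypoxia it was higher by 0.41 (SE 0.22) in mutant cultures with 4-OHT, with 0.39 and 0.43 within the slides, and 14.0% of kept probes were higher by at least as much. Mutant cultures without 4-OHT had a hypoxic level higher than WT by 1.40 (SE 0.22), or 2.64-fold, with 1.34 and 1.46 within the slides, and 3.03% of kept probes were higher by at least as much. In normoxia mutant cultures without 4-OHT differed from WT by 0.08 (SE 0.22) and the arrays overlapped.

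Hypoxic WT cultures had less Ddah1 RNA than normoxic ones, by 0.98 (SE 0.22), with -1.01 and -0.96 within the slides, and 2.77% of kept probes were lower by at least as much. In mutant cultures Ddah1 was higher under hypoxia, by 0.58 (SE 0.22; 0.97 and 0.20 within the slides) with 4-OHT and by 0.33 (SE 0.22; 0.25 and 0.42) without. Arrays stood apart in that direction for 12.1% of kept probes with 4-OHT and 32.9% without. Without the slide 1 array of the normoxic cultures with 4-OHT the first of these was 0.21, and without their slide 2 array it was 0.95. The oxygen difference was 1.57 greater in mutant cultures with 4-OHT and 1.32 (SE 0.31) greater in those without than in WT cultures, which were not tested.

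**Figure D3:**
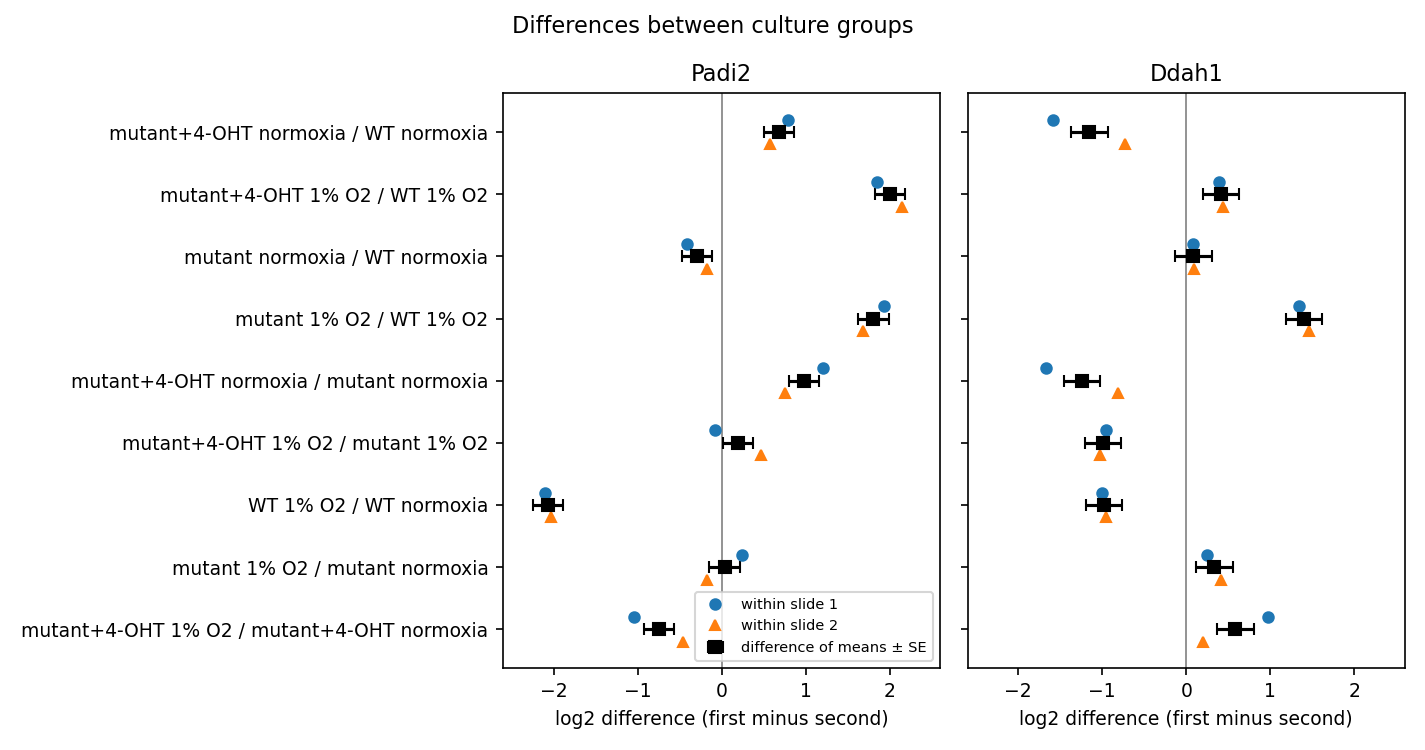
Log2 difference (x axis, first group minus second) of Padi2 (left) and Ddah1 (right) in 9 comparisons of culture groups; squares are differences of means with their SE, and circles and triangles are the differences within slides 1 and 2. Padi2 differs most in hypoxic WT cultures against normoxic ones (-2.06) and in mutant against WT cultures under hypoxia (4.00-fold with 4-OHT and 3.50-fold without), and Ddah1 in hypoxic mutant cultures without 4-OHT against WT (1.40) and with against without 4-OHT in normoxia (-1.24).

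Padi2 and Ddah1 thus shared a lower level in hypoxic than in normoxic WT cultures and a higher level in hypoxic mutant cultures of both kinds than in hypoxic WT cultures. Both traits rest on the same 2 hypoxic WT arrays. With 4-OHT the hypoxic Ddah1 difference from WT was only 0.41 (SE 0.22), and 14.0% of kept probes were higher by at least as much. With 4-OHT in normoxic mutant cultures they differed in opposite directions, 0.98 for Padi2 and -1.24 for Ddah1. Over the 12 arrays the Pearson correlation of their log2 values was 0.119, higher than that of Padi2 with 66.7% of the other named genes.

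The genes most like Padi2 over the 12 arrays, among 3989 other named genes, were Rp2 (r = 0.948), a GTPase-activating protein of cilia, Trp53inp2 (0.896), an autophagy regulator, C77080 (0.886), Ago2 (0.881), the slicing Argonaute of RNA interference, and Rcan3 (0.881), a calcineurin regulator. The most opposite were Ino80e (-0.934), a subunit of the INO80 chromatin remodeller, Ptgs1 (-0.913), a cyclooxygenase, Ak5 (-0.888), an adenylate kinase, Cfap100 (-0.888) and Cdhr4 (-0.878). Ptgs1 was above background on 3 arrays and Cfap100 on 2. The genes most like Ddah1 were Rogdi (0.982), Lockd (0.964), a noncoding RNA, Gstm1 (0.944), a glutathione S-transferase, Ccdc167 (0.943) and Sdhb (0.94), a subunit of succinate dehydrogenase. Among the most opposite were Nxt2 (-0.97), an RNA export factor, Efcab14 (-0.96), Abhd17b (-0.955), a depalmitoylase above background on 3 arrays, and Zfp281 (-0.948), a zinc finger factor. These correlations are a description over arrays that share groups and slides.

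The relatives of both enzymes could hardly be read from these arrays. The probes of Padi3 and Padi4, which act in skin and in granulocytes, were not above background on any array, with intensities of 24.8 to 40.4 and 28.0 to 40.1, and Padi1, Padi6 and Ddah2 had no probe that was named here. Of 84 other genes of arginine methylation, nitric oxide, urea cycle, creatine, polyamines, arginine transport and PAD substrates, 34 had a named probe and 21 a kept one. Nos1, a source of nitric oxide, Odc1, the first enzyme of polyamine synthesis, and the arginine transporter Slc7a1 were named but not above background on any array.

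Among these 21 genes, most that passed the test did so in comparisons with hypoxic mutant cultures without 4-OHT. The largest shares of all kept probes passed there too, 28.6% with against without 4-OHT and 24.8% without 4-OHT against WT, both under hypoxia. With than without 4-OHT under hypoxia, 3 were higher and 8 lower (limma, adjusted p under 0.05), where 28.6% of all kept probes passed, 13.7% higher and 15% lower. Those higher were polyamine genes: Smox, spermine oxidase, rose by 0.98 (adjusted p = 0.00394), Oaz1, the antizyme that restrains ornithine decarboxylase, by 0.97 (adjusted p = 0.0234) and Sat1, which acetylates spermidine and spermine, by 0.75 (adjusted p = 0.00898). Those lower were Cav1, caveolin 1 (-1.56), Srm, spermidine synthase (-1.56), the chaperone gene Hsp90aa1 (-1.46), the PAD substrate genes Ncl (-0.86) and Actb (-0.64), brain creatine kinase Ckb (-0.77), the main arginine methyltransferase gene Prmt1 (-0.57) and Amd1, which makes the aminopropyl donor of polyamines, at least 1.12-fold lower and above background on 1 of 4 arrays. The median difference of the 21 genes was -0.38, against -0.02 over all kept probes. Without 1 of the 4 arrays 5 to 8 genes passed, and with the limma background estimate from all detection p-values the Srm difference was -0.83.

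The same hypoxic mutant cultures without 4-OHT had 5 of the 21 genes higher and 3 lower than hypoxic WT cultures, where 24.8% of kept probes passed, 12.4% higher and 12.4% lower; without 1 of the 4 arrays 3 to 4 genes passed. Actb (1.10), Ckb (1.09), Cav1 (0.82), Srm (0.64) and Ncl (0.60) were higher, and Smox (-1.33), Oaz1 (-1.25) and Sat1 (-0.73) lower. Against their own normoxic cultures, Ncl (0.94), Srm (0.89), Cav1 (0.85) and Amd1 (at least 1.11-fold) were higher and Smox (-0.72) lower, where 12.3% of kept probes passed, 5.62% higher and 6.65% lower. Prmt1, whose product makes the precursor of the DDAH1 substrate, had normalized log2 intensities of 10.91 and 10.80 in hypoxic mutant cultures with 4-OHT and 11.36 and 11.48 in those without. The arrays did not overlap, as for 34.3% of kept probes in this direction.

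In the other comparisons 0 to 4 of the 21 genes passed. With than without 4-OHT in normoxia, Srm (-1.16), Actb (-0.80), Ckb (-0.77) and Gch1 (at least 1.21-fold), the first enzyme of the synthesis of the nitric oxide synthase cofactor, were lower and 0 were higher, beside 5.98% of kept probes, 2.54% higher and 3.45% lower; none of the 4 passed with only the 4 arrays compared (6 at an unadjusted p under 0.05 over all arrays), and Srm, Ckb and Gch1 did not with the limma background estimate. Mutant cultures with 4-OHT had lower Cav1 (-0.98), Ass1 (-0.87), which makes argininosuccinate from citrulline, and Krt10 (-0.69), also a keratinocyte marker, than WT cultures in normoxia, beside 22.8% of kept probes, 11.1% higher and 11.7% lower. Under hypoxia they had higher Gch1 (at least 1.35-fold) and lower Srm (-0.92) and Ass1 (-0.72; adjusted p = 0.0463) than WT, beside 12.7% of kept probes, 6.83% higher and 5.86% lower, and 5 genes passed with the slide as a block. Mutant cultures without 4-OHT had higher Gch1 (at least 1.1-fold) and Actb (1.04) than WT in normoxia, beside 14.3% of kept probes, 8.31% higher and 5.98% lower, and 4 genes passed with the block. With the limma background estimate from all detection p-values the differences of dim genes were smaller. In the comparisons above where they passed, Gch1 then had 0.078, 0.092 and -0.064 in place of 0.82, 1.04 and -0.73, Amd1 -0.074 and 0.070 in place of -0.83 and 0.81, and Krt10 -0.12. These Gch1 and Amd1 differences are smaller than the bounds given for both genes, which hold for the main background correction only. Srm then had -0.34 with against without 4-OHT in normoxia and -0.36 with 4-OHT against WT under hypoxia, and Smox 0.61 with against without 4-OHT under hypoxia and -0.39 for hypoxia without 4-OHT.

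Hypoxia in WT cultures, where both Padi2 and Ddah1 were lower, went with higher Srm (0.87; adjusted p = 0.0225; 0.34 with the limma background estimate) and lower Oaz2 (-0.98; adjusted p = 0.0189), an antizyme, beside 10.2% of kept probes, 5.3% higher and 4.86% lower, and 4 genes passed with the slide as a block. In mutant cultures with 4-OHT 0 of the 21 genes passed between hypoxia and normoxia with limma, 2 at an unadjusted p under 0.05, beside 0.0268% of kept probes, 0.0268% higher and 0% lower. In WT cultures 9 genes passed at an unadjusted p under 0.05, and none passed after adjustment once any 1 of the 4 WT arrays was left out. The oxygen difference itself differed between mutant cultures without 4-OHT and WT cultures for Cav1, as for 11.8% of kept probes. Between mutant cultures with and without 4-OHT it differed for Cav1 and for Gch1, as for 5.17% of kept probes. Gch1 was not above background on either normoxic array with 4-OHT.

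**Figure D4:**
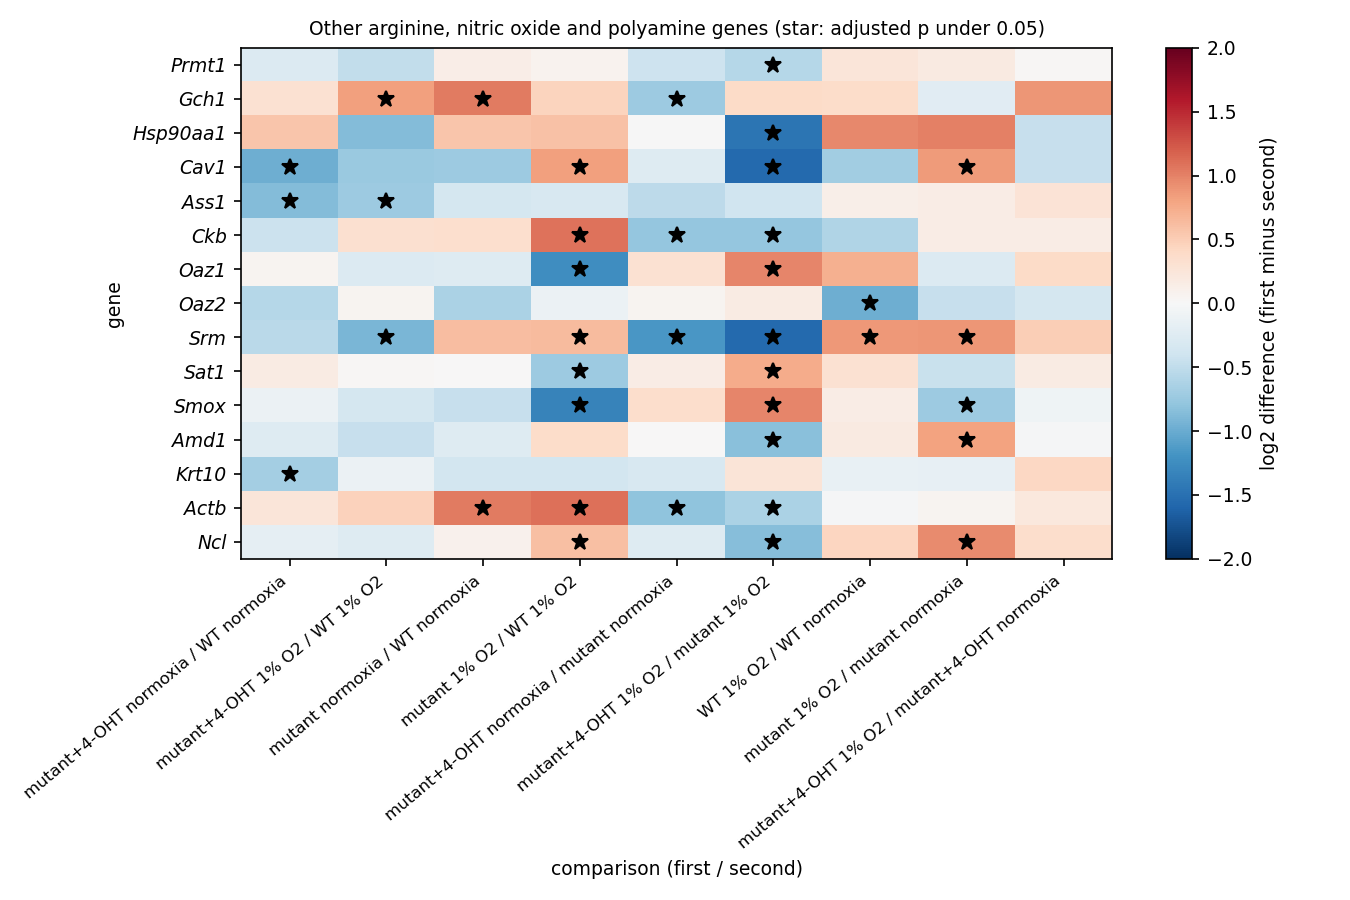
Log2 difference (colour, first group minus second, red higher and blue lower) of the 15 arginine, nitric oxide, polyamine and PAD substrate genes (rows) with an adjusted p under 0.05 in any of 9 comparisons (columns); stars mark the 38 tests that passed. Stars gather in hypoxic mutant cultures with against without 4-OHT, where 11 genes passed and where the share of all kept probes that passed was also the largest, 28.6%.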

How the data were processed

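The authors scanned Illumina Mouse-6 arrays and deposited probe intensities and detection p-values that were not normalized, and a second table of their normalized values, used as an alternative (its log2 values after a floor of 16). Control probes (43) were left out. Background was corrected and arrays were quantile normalized with neqc (limma 3.58.1, R 4.3.3; offset 16). The deposited detection p-values of 5 bright probes lay above 0 but under the step of 1 in 1603 negative controls, which inflated the background estimate, and were set to 0. A probe was kept where its detection p fell under 0.01 on any array, which left 14906. One limma fit over 12 arrays, 6 groups and 6 residual degrees of freedom gave differences, and p-values were adjusted by Benjamini-Hochberg over all kept probes. The number of arrays limits the precision. Where only the brighter group was above background, a fold is a bound that holds for this background correction only. It sets the bright group's mean against the higher of the dim probe's own signal and the lowest signal above background on that array. That lowest signal leaves out at most 1 stray probe with a small p but a signal under that of undetected probes. Scripts were tested on simulated data.

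Gene numbers in 11857 probe names were matched to RefSeq, 82.6% with success and 46.0% after adding 1 to each number; with clone names, 10777 probes were named. A gene is given by its brightest kept probe. Members, lists and markers were chosen with earlier results of these data known. Named are both genes, their relatives, list genes that passed the test, the 5 most and least correlated genes (1 is not reported here), and sex, hypoxia and Atf2 checks. Same-numbered arrays share a slide by their labels; their deviations correlated by -0.225 to 0.6 over 15 pairs of groups, above 0.1 in 12. Alternatives were the limma background estimate with all detection p-values, the authors' values, median scaling, other filters, an intensity trend, the slide as a block, only the arrays compared, and leaving out each array. The Padi2 promoter window is built on a transcript start downstream of the gene start that RefSeq lists. Figures were drawn with matplotlib.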

Additional observations from a re-analysis of the deposited data

Results flagged for a closer look

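The hypoxia difference of Ddah1 was 1.32 greater in mutant cultures without 4-OHT than in WT cultures and 1.57 greater in mutant cultures with 4-OHT; it was above 0 on both slides in each kind of mutant culture and below 0 on both in WT cultures, and these differences were not tested. The hypoxia difference of Gch1 was 1.11 greater with than without 4-OHT in mutant cultures (interaction in the limma fit, adjusted p = 0.0121), but Gch1 was not above background on either normoxic array with 4-OHT, so the size of this difference is not established. The hypoxia difference of Cav1 was 1.55 greater in mutant cultures without 4-OHT than in WT cultures (adjusted p = 0.0103, limma), and differed by -1.31 between mutant cultures with and without 4-OHT (adjusted p = 0.0398, limma). The interaction passed for 11.8% of kept probes between mutant cultures without 4-OHT and WT cultures, and for 5.17% between the mutant cultures.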

How the results depend on the processing

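All 9 differences of Padi2 and of Ddah1 stayed within the spread between partner arrays with the authors' values and median scaling. The slide as a block cannot move them, as each slide holds every group. With the limma background estimate, Padi2 gave 2.33 and 2.10 with and without 4-OHT against WT under hypoxia. For hypoxia in WT cultures it gave -2.41. Ddah1 gave 1.69 without 4-OHT against WT and -1.26 with against without 4-OHT, both under hypoxia. The second Padi2 probe gave no value.
Leaving out 1 array moved Ddah1 with 4-OHT in normoxia to between -1.52 and -0.78 against WT and between -1.61 and -0.87 against mutant cultures without 4-OHT, and its hypoxia difference with 4-OHT to between 0.21 and 0.95, the extremes being without either normoxic array with 4-OHT. For Padi2 it gave 1.81 to 2.19 for mutant cultures with 4-OHT against WT under hypoxia, 0.00275 to 0.39 against mutant cultures without 4-OHT, and -0.94 to -0.56 for hypoxia with 4-OHT, the extremes being without either hypoxic array with 4-OHT.
Of the 38 passing tests of other arginine genes, 29 passed with the limma background estimate, 36 with the authors' values and 31 with median scaling. There 0 changed sign, and 38 passed with the block. Lost with the limma background estimate were Gch1, Srm and Ckb with against without 4-OHT in normoxia, Oaz1 and Amd1 in the same comparison under hypoxia, Ass1 with 4-OHT against WT under hypoxia, Krt10 in normoxia, and Smox and Amd1 for hypoxia without 4-OHT; of these, Ass1 and Ckb were also lost with the authors' values. Median scaling lost Gch1, Ass1, Ckb, Smox, Krt10, the second of the Amd1 calls, and Ncl without 4-OHT against WT under hypoxia. Adjusted p of lost calls ran between 0.0502 and 0.159 (limma). Counts of the 21 genes that passed moved as follows. With 4-OHT against WT in normoxia (3), 1 passed with only the 4 arrays compared and 0 to 4 without 1 array, fewest without either WT array. With 4-OHT against WT under hypoxia (3), 5 passed with the block and 1 to 3 without 1 array, fewest without either WT array. Without 4-OHT against WT, 4 passed in normoxia with the block and 2 to 4 without 1 array (2 with all), most without the slide 2 mutant array, and under hypoxia (8) 13 with only the 4 arrays and 3 to 4 without any 1. With against without 4-OHT in normoxia (4), 2 passed with the limma background estimate, 2 with median scaling, 0 with only the 4 arrays and 0 to 4 without 1 array, fewest without either array of cultures without 4-OHT, and under hypoxia (11) 5 to 8 passed without 1 array, fewest without the slide 2 array of cultures without 4-OHT. For hypoxia, WT cultures (2) gave 4 with the block, 9 with only the 4 arrays and 0 without any 1, mutant cultures without 4-OHT (5) gave 3 with the limma background estimate, 3 with median scaling, 2 with no filter and 0 to 3 without 1 array, and those with 4-OHT (0) gave 1 with no filter and 0 to 3 without 1 array, most without the slide 2 normoxic array. Over all kept probes, only the 4 arrays compared gave 1113 in place of 3404 calls with 4-OHT against WT in normoxia, 6722 in place of 3698 without 4-OHT against WT under hypoxia, 1 in place of 892 with against without 4-OHT in normoxia (567 with the limma background estimate, 570 with median scaling), 5199 in place of 1515 for hypoxia in WT cultures and 0 in place of 4 for hypoxia with 4-OHT (8 with no filter). Without 1 array these became 1377 to 5322, 1723 to 2047, 50 to 2966, 120 to 384 and 0 to 1696, and in the other comparisons 942 to 1754 (1891 with all arrays), 921 to 1582 (2130), 2374 to 3897 (4266) and 750 to 1471 (1828). A lone array was assumed to vary like those of the other groups.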
